A study of Mus musculus with 40 samples.

Results

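The nuclear-encoded subunits of the mitochondrial respiratory chain and ATP synthase were examined in single mouse spermatocytes. Members were all symbols of the count table that begin with the names of complex I (Nduf), complex II (Sdh), complex III (Uqcr), complex IV (Cox4 to Cox8) or ATP synthase (Atp5) subunits. Of 105 such symbols, 6 ending in -ps and a digit were left out, and 92 of the 99 kept were measured, that is, had at least 20 counts summed over all cells, of 16174 measured genes and 55492 genes in all. The 92 comprised 82 symbols named as subunits, 4 assembly factors of complex II that share the Sdh name (Sdhaf1 to Sdhaf4) and 6 symbols named as pseudogenes. Among the 82, Ndufs6b (101 counts), Cox6c2 (109) and Ndufb4c (217) are processed pseudogenes in GENCODE M21. They are counted with the subunits below because membership was set by symbol. Just inside the minimum were Ndufa12-ps with 21 counts and Atp5pb-ps with 29. The 7 members below it were Ndufs3 with 9 counts, Uqcrc1, Atp5c1-ps and Ndufa11b with 1 count each, and Cox4i2, Cox6a2 and Cox8b with 0.

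The study holds 40 libraries, each from 1 testis cell, of which 20 are named Pachytene and 20 Metaphase I. All cells came from C57BL/6J mice that were 6 to 8 weeks old. No transgene or mutation is named for either group. Spermatocytes were separated by centrifugal elutriation and, per the labels' protocols, driven to metaphase I in culture by 4 µM okadaic acid, an inhibitor of the protein phosphatases PP1 and PP2A, over 5 h. The same protocol text stands on both groups, and the labels do not say whether the Pachytene cells were cultured or given the drug. Any effects of stage, drug and culture time thus cannot be told apart, and the labels name no animal. Each group was therefore treated as 1 sample, values are described without a test, and the 95% intervals cover counting error only.

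As background, electrons from NADH and succinate enter the respiratory chain at complexes I and II, pass through complex III and cytochrome c to complex IV, and the resulting proton gradient drives ATP synthase (complex V). Most subunits are encoded in the nucleus, while the mitochondrial genome encodes a small set of core subunits of complexes I, III, IV and V, so the complexes are assembled from 2 genomes. Male germ cells are known for exchanging several somatic subunits for testis isoforms, among them Cox6b2, Cox7b2 and Cox8c of complex IV and the testis cytochrome c, Cyct. The X chromosome, which carries Ndufa1, Ndufb11 and Cox7b, is silenced in pachytene.

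Totals ran from 165048 to 2325564 counts per cell in Pachytene and from 198117 to 1497037 in Metaphase I. In both groups markers of pachytene spermatocytes were abundant, with a median of 27099 CPM (counts per 1000000 counts) in Pachytene and 26931 in Metaphase I. In 8 libraries (Pachytene replicates 2, 3, 7 and 19 and Metaphase I replicates 3, 7, 17 and 19) more than 0.3% of counts fell on X-linked genes. The summed spermatid markers had a median of 7035 CPM in those 8, the lowest being 49.7 in Metaphase I replicate 19, and at most 1545 in the other 32. Metaphase I replicate 19 stood apart further: its summed Sertoli cell markers reached 14985 CPM, against at most 22.4 in Pachytene, although Gata4, Amh, Rhox5 and Trf of that list were at 0 in the table. Metaphase I replicate 18 had the next highest Sertoli marker level, 217 CPM. The part of this spermatid and Sertoli RNA in the values below was not tested, so values that rest on them are given with and without them.

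The testis isoforms of complex IV made up nearly all transcripts of their pairs in both groups. Cox6b2, on chromosome 7 (4751792 to 4753094, minus strand, GRCm38), held 97.5% of Cox6b1 and Cox6b2 counts in Pachytene, with a Clopper-Pearson interval of 97.3 to 97.7, and 97.01% in Metaphase I, with one of 96.8 to 97.3. Over single cells its share ran from 89.8% through a median of 97.8% to 99.5% in Pachytene, and from 61.2% through 98.2% to 99.4% in Metaphase I. The ranges overlapped, and the lowest Metaphase I cell was replicate 19, without which the lowest was 94.3% and the summed share 98.0%.

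Cox7b2 (chromosome 5, 71442824 to 71548205, minus strand) held 99.99% of counts with its X-linked paralogue Cox7b in Pachytene, where Cox7b had 1 count over the 20 cells together. In Metaphase I the share was 99.7%, and 99.99% without replicate 19. Cox8c (chromosome 12, 102899316 to 102900526, plus strand) held 99.4% of Cox8a and Cox8c counts in Pachytene and 99.3% in Metaphase I. Across cells the Cox8c share ran from 97.2% to 100% in Pachytene and from 80.1% to 100% in Metaphase I, where replicate 19 was again the lowest and the next was 98.2%. Dividing counts by gene length left these 3 shares at or above 95.4% in both groups.

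In replicate 19 itself the shares were 61.2% for Cox6b2 (56.8 to 65.5), 89.1% for Cox7b2 (85.6 to 91.9) and 80.1% for Cox8c (76.7 to 83.2). The same cell had 27.3% Cyct of Cyct and Cycs counts, against 99.2% in Pachytene and 98.6% in the other 19 Metaphase I cells. Every one of these 4 germ cell isoforms thus had its lowest Metaphase I share in the library with the Sertoli markers.

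**Figure D1:**
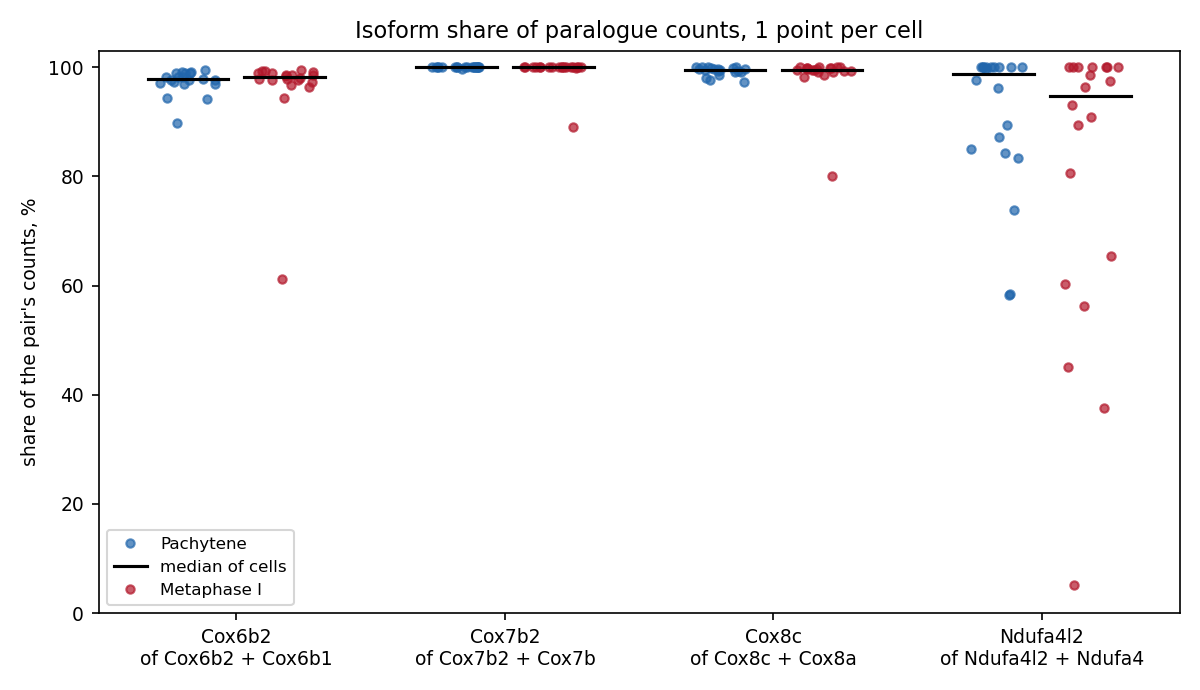
Share (%) of the first-named isoform among the counts of its pair, 1 point per cell, 20 Pachytene and 20 Metaphase I cells, with black bars at the median over cells. The Cox6b2, Cox7b2 and Cox8c points lie near the top except for 1 Metaphase I cell (replicate 19) at 61.2%, 89.1% and 80.1%, while Ndufa4l2 is spread widely in both groups.

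The stretches upstream of 2 of these isoforms and of their somatic partners are shown because transcripts of each pair differed so widely in level. They run from 130 to 41 bases before the RefSeq start on GRCm38.p6, a window with no annotated GENCODE M21 exon in any of the 4. Cox6b2 is at chr7:4753135-4753224 (minus strand), Cox6b1 at chr7:30626155-30626244 (minus), Cox7b2 at chr5:71548246-71548335 (minus) and Cox7b at chrX:106015570-106015659 (plus). Capitals mark motifs found on either strand.
Cox6b2: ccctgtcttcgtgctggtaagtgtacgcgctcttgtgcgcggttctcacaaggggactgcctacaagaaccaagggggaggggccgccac
Cox6b1: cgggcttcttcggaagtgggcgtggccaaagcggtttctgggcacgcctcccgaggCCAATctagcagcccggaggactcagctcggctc
Cox7b2: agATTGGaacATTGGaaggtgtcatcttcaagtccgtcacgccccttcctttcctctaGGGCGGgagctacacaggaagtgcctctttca
Cox7b: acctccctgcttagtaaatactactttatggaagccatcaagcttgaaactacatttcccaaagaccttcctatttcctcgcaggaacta

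Motifs were searched on both strands of this window in 32851 RefSeq promoters and in the 74 promoters of the 69 members that had one. The CCAAT box (CCAAT) stood in 17.5% of all windows and in 25.7% of member windows, and the GC box (GGGCGG) in 19.6% and 20.3%. The ETS motif (CCGGAAG) stood in 2.68% and 5.41%, a core of the NRF1 motif (GCGCATGC) in 0.986% and 5.41%, and the cyclic AMP response element (TGACGTCA) in 0.746% and 1.35%. These 3 member percentages stand for only 4, 4 and 1 of the 74 windows. Cox6b1 had 1 CCAAT box, Cox7b2 had 2 CCAAT boxes and 1 GC box, and none of the 5 motifs was in the Cox6b2 or Cox7b window. GC content of the window had a median of 60.0% for members and 54.4% for all promoters.

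Of the isoforms known from other tissues, the muscle and heart isoforms Cox6a2 and Cox8b and the lung isoform Cox4i2 had no count in any cell. A count of 0 among 36902 Pachytene counts of Cox4i2 and Cox4i1 has an exact upper limit of 0.0100%. Cox7a1, a muscle and heart isoform, had 33 counts, all in Metaphase I replicate 19, and 0 in Pachytene. Of their somatic partners, Cox4i1 had 2089 CPM in Pachytene and 2524 in Metaphase I, Cox6a1 404 and 453, and Cox7a2 1006 and 1026. Cox8a, the partner of Cox8b, had only 15.7 and 18.5 CPM. Cox7a2l had 108 and 122 CPM.

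Ndufa4 and its paralogue Ndufa4l2 differed from the other pairs. Ndufa4, long counted with complex I and now known as a subunit of complex IV, had few counts, while Ndufa4l2, known as a hypoxia-induced relative, was detected in all 40 cells. Ndufa4l2 (chromosome 10, 127514967 to 127517154, plus strand) held 92.7% of the pair in Pachytene and 68.6% in Metaphase I, or 88.1% without replicate 19. Over single cells that share had a median of 98.7% in Pachytene (lowest 58.2%) and of 94.7% in Metaphase I (lowest 5.16%), so the groups overlapped.

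Per gene, CPM over cells of Ndufa4l2 ran from 24.2 through 84.9 to 168 in Pachytene and from 17.6 through 75.2 to 158 in Metaphase I. Its summed level was 0.646-fold in Metaphase I relative to Pachytene (exact interval 0.596 to 0.700), the lowest ratio in complex IV, although the cells of both groups covered much the same range. An exon of Shmt2 on the opposite strand overlaps 32 of its 1095 bases.

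Among all members, complex IV genes led in abundance. The 10 most abundant members (Cox8c, Cox4i1, Uqcrq, Cox6b2, Cox7a2, Cox7b2, Ndufv2, Ndufc1, Atp5j and Cox7c) held 45.3% of all member counts, 6 of the 10 from complex IV, and Cox8c with Cox4i1 alone held 16.9%. In both groups together 5 members exceeded 1000 CPM and 12 lay below 10 CPM. Complex IV held 38.6% of member counts in Pachytene and 39.4% in Metaphase I, complex I 27.9% and 27.7%, complex V 18.4% and 18.1%, complex III 10.0% and 9.78%, and complex II 2.11% and 2.29%.

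Per kilobase of deposited gene length, the order of levels over both groups was Cox8c (5332 CPM per kb), Cox7b2 (1838), Cox4i1 (1470), Cox6b2 (1088), Cox7a2 (1075) and Uqcrq (754). These libraries keep transcript ends at the 3′ side, so division by length lowers long genes. The 3 testis isoforms were thus among the 4 most abundant subunits on this scale. Median levels per kb were 246 for complex III, 145 for complex IV, 104 for complex I, 99.6 for complex V and 62.6 for complex II.

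In complex I, Ndufv2, an iron-sulphur subunit of the NADH-oxidising module, had from 273 through 928 to 1401 CPM in Pachytene cells and from 274 through 819 to 1128 in Metaphase I cells. Ndufc1, a small subunit of the membrane arm, had from 430 through 970 to 1382 CPM and from 230 through 704 to 1389. The ranges of both genes overlapped across the groups, and their summed levels were 0.929-fold (0.907 to 0.951) and 0.911-fold (0.889 to 0.933) in Metaphase I relative to Pachytene.

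Succinate dehydrogenase, complex II, had all 4 of its subunits measured. Its 4 subunits lay between 106 and 184 CPM in Pachytene and between 143 and 193 in Metaphase I, and all 4 had positive log2 ratios, from 0.04 for the flavoprotein Sdha to 0.43 for the membrane anchor Sdhd. Without Pachytene replicate 7 the ratio was -0.08 for Sdha, -0.02 for Sdhb and 0.27 for Sdhd. Medians over cells were 175 and 174 CPM for Sdha, 188 and 165 for Sdhb, 121 and 138 for Sdhc, and 92.4 and 139 for Sdhd. Sdhd spanned a wider range of levels over cells than Sdha, with 6.06 to 262 CPM in Pachytene and 3.23 to 337 in Metaphase I, against 54.0 to 271 and 61.1 to 258 for Sdha. Sdhc ran from 0 to 301 CPM in Pachytene cells and from 36.9 to 251 in Metaphase I cells.

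In complex III, Uqcrq, a small structural subunit, had 848 through 1453 to 1870 CPM in Pachytene cells and 657 through 1328 to 1829 in Metaphase I cells, with a ratio of 0.969-fold (0.950 to 0.987). Uqcrb, the subunit at the ubiquinone site, had medians of 349 and 324 CPM. Uqcr11 had the highest ratio of the complex, 1.35-fold (1.26 to 1.45), with medians of 70.2 and 87.4 CPM and overlapping cells. The core protein gene Uqcrc1 had 1 count and complex I's Ndufs3 had 9. Both are listed in the table on 2 contigs, a chromosome and a second sequence, as is Atp5a1, which had 4347 counts. Of 631 genes listed on more than 1 contig, 596 had under 20 counts, against 38722 of 54861 genes on 1 contig. The part of this listing in the low counts of Ndufs3 and Uqcrc1 was not tested.

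In ATP synthase, Atp5j, coupling factor 6 of the stalk, had 297 through 772 to 997 CPM in Pachytene cells and 363 through 804 to 953 in Metaphase I cells. Atp5b, the catalytic beta subunit, had 349 through 570 to 779 CPM and 223 through 548 to 825. Their summed ratios were 1.04-fold (1.01 to 1.06) and 1.03-fold (0.998 to 1.06). The c subunit of the rotor is encoded by 3 genes, of which Atp5g1 held 52.0% of the trio's counts in Pachytene and 41.7% in Metaphase I, Atp5g3 46.7% and 57.1%, and Atp5g2 1.36% and 1.23%. Single cells weighed on these sums. Pachytene replicate 7 held 25.9% of the Atp5g1 Pachytene count, and Metaphase I replicate 13 held 27.0% of the Atp5g3 Metaphase I count. Medians over cells were 130 and 112 CPM for Atp5g1 and 104 and 106 for Atp5g3.

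**Figure D2:**
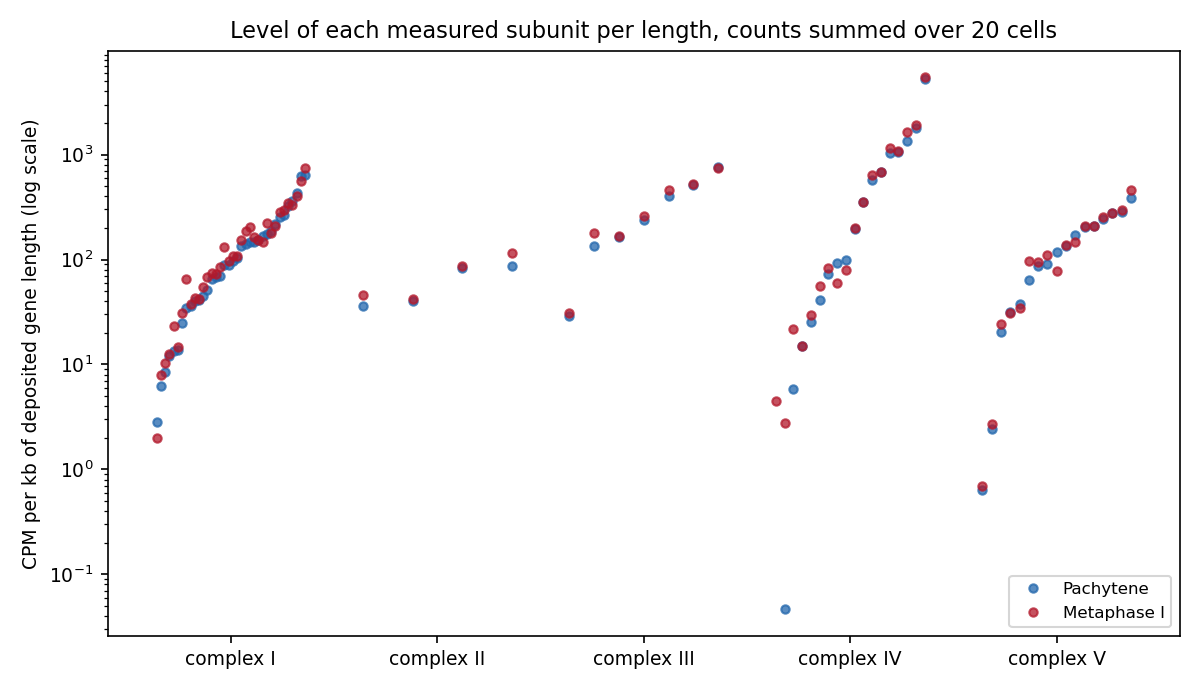
Level of each measured subunit, in CPM per kb of deposited gene length on a log scale, from counts summed over the 20 cells of each group, ordered within each complex by the Pachytene level (Cox7a1, at 0 in Pachytene, has a Metaphase I point only). Points of both groups nearly coincide for most subunits, and Cox8c, at 5332 over both groups, is the highest.

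Counts of some members depend on near-identical gene copies. Of 83 measured members with a transcript to search, 18 shared at least 100 bases at 97% identity or more with another gene in the last 300 bases of a transcript. In 5 of them the other gene held over 5% of the member's count. Atp5l, a membrane subunit of ATP synthase with only 133 counts, had 169 counts at its copy Gm10221 and 43 at Gm4045. Atp5l2-ps, Atp5g2, Ndufb11 and Atp5o were the others. Atp5o shared 300 bases at 97.3% identity with Gm5436, which had 768 counts. It also shared 287 identical bases with Donson, a gene whose exons overlap those of Atp5o on the same strand rather than a separate copy. Among the 18, the matches of Ndufb2 (Gm42420) and Ndufb8 (Gm20538) were likewise with genes overlapping on the same strand. Values of these 5 are uncertain.

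The ratio of Metaphase I to Pachytene was close to 1 for most members. With 1 CPM added to each level, 83 of 92 members (90.2%) had a log2 ratio between -0.50 and 0.50, against 58.5% of all measured genes. Over 2-fold higher in Metaphase I were 3 members, where 8.49% of all measured genes were, and 0 were over 2-fold lower, where 9.81% of all measured genes were. The median log2 ratio was 0.10 for members (quartiles 0.01 and 0.26) and -0.00 for all genes (quartiles -0.40 and 0.38).

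That positive median did not hold when cells were weighted equally. From summed counts 71 members had a positive ratio, from mean CPM over cells 44, and from median CPM over cells 28, with medians of -0.01 and -0.06. By complex the median summed ratio was 0.15 for complex I, 0.21 for complex II, 0.09 for complex III, 0.13 for complex IV and 0.05 for complex V.

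**Figure D3:**
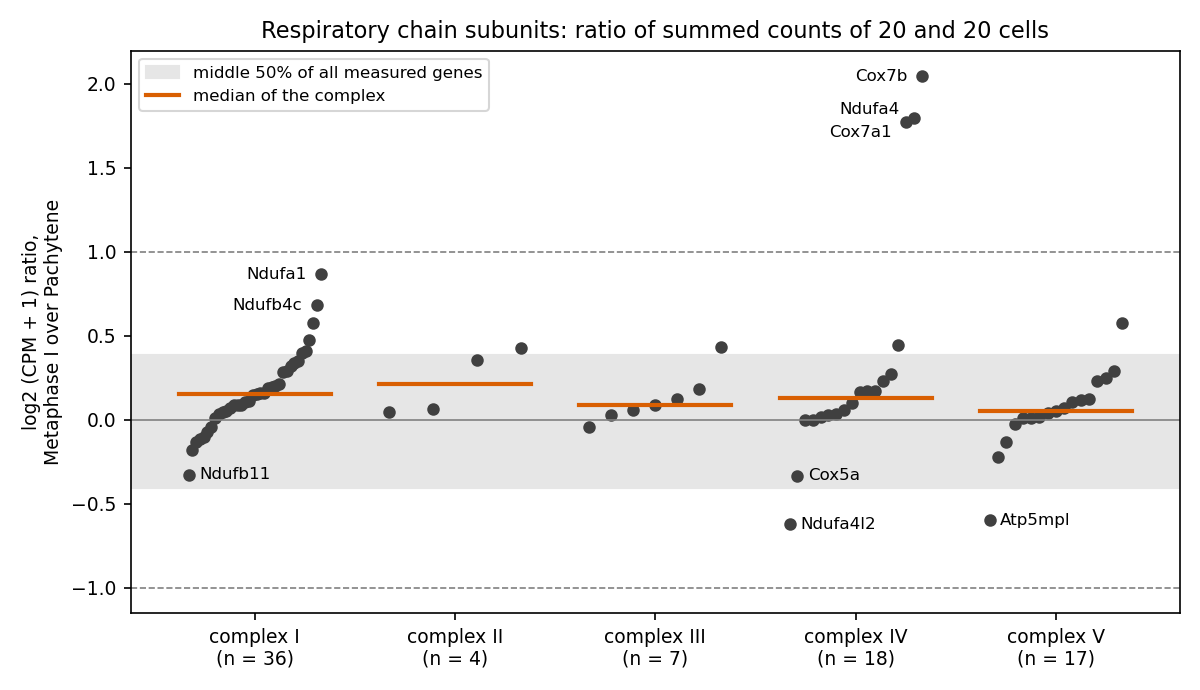
Log2 ratio (CPM + 1, Metaphase I over Pachytene, summed counts) of each measured subunit by complex, ordered within each complex, with the median of the complex in orange, the middle 50% of all measured genes in grey and dashed lines at 2-fold. Only Cox7b, Ndufa4 and Cox7a1 lie past a dashed line, and all 3 rest on Metaphase I replicate 19.

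The 3 members past 2-fold were carried by 1 library. Ndufa4 had 0 through 2.21 to 36.4 CPM in Pachytene cells and 0 through 3.17 to 417 in Metaphase I cells, and 71.0% of its Metaphase I counts were in replicate 19. Cox7b had a count in 1 Pachytene cell (at 2.01 CPM) and in 2 Metaphase I cells, replicate 19 accounting for 95.7% of the Metaphase I count. Cox7a1 was present in that cell alone. The summed folds were 3.78 for Ndufa4 (3.12 to 4.61), 59.3 for Cox7b against 1 count (10.1 to 2391), and at least 14.2-fold higher for Cox7a1, taking 3 counts over the whole Pachytene group as the floor.

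Without replicate 19, the log2 ratios were 0.19 for Ndufa4, 0.13 for Cox7b and 0.00 for Cox7a1. In that setting 0 members were over 2-fold higher (4.98% of all genes) and 1 was lower (9.94% of all genes). The lower one was the X-linked Ndufb11 at -1.004. Ndufb11 rested on few counts, 45 in Pachytene and 25 in Metaphase I, with 15 of the 25 from replicate 19. Over all cells its log2 ratio was -0.33. Leaving out only Pachytene replicate 2, the source of 46.7% of the 45, turned the ratio positive, to 0.23. Without the 8 libraries with high X-linked counts, 1 member was over 2-fold higher (5.65% of all genes), Ndufa1 at 1.11, and 0 were lower (3.69%).

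Other somatic partners moved with the same library. Cox8a had a log2 ratio of 0.23, or -0.60 without replicate 19, which held 48.8% of its Metaphase I counts. Cox6b1 had 0.44, or -0.09 without it, at 35.3%. Pachytene replicate 7 held 32.1% of the Cox8a and 27.2% of the Cox6b1 Pachytene counts. Without that Pachytene cell alone their log2 ratios were 0.56 and 0.69. Outside those genes, the largest negative ratio in complex V was that of Atp5mpl, a small membrane-associated subunit, at -0.60. Its cells ran from 15.9 through 63.7 to 475 CPM in Pachytene and from 14.9 through 63.6 to 299 in Metaphase I. Pachytene replicate 7 held 43.9% of its Pachytene counts, and without that cell its log2 ratio was 0.02.

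Among the other extremes of a complex, Atp5g3 had a log2 ratio of 0.58, or 0.29 without replicate 13, the cell with 27.0% of its Metaphase I count. Its medians over cells were 104 CPM in Pachytene and 106 in Metaphase I. Ndufa12, an accessory subunit that replaces its assembly factor late in building complex I, had the lowest ratio there among members with 100 counts or more, -0.18, with medians of 247 and 245 CPM.

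The 3 X-linked members differed in how often they were detected. Ndufa1, a small membrane-arm subunit of complex I (X chromosome, 37187588 to 37191163), was detected in 36 of 40 cells, with 0 through 11.9 to 34.4 CPM in Pachytene and 0 through 16.8 to 90.8 in Metaphase I. By its median over all cells, 14.7 CPM, it ranked 6 among 370 measured X-linked genes, of which 342 had a median of 0. It was seen in 29 of the 32 cells with a low X-linked share and in 7 of the other 8. Its summed fold was 1.88 (1.60 to 2.21). Replicate 13 held 36.5% of the Metaphase I count, and the log2 ratio was 0.86, or 0.40 without that cell.

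Ndufb11, a membrane-arm subunit as well (X chromosome, 20615326 to 20617619), was detected in 3 Pachytene and 4 Metaphase I cells, and 59 of its 70 counts came from the 8 libraries with X-linked counts over 0.3%. Of its 908 exon bases, 117 overlap Rbm10 on the opposite strand. Cox7b (X chromosome, 106015700 to 106022450) had 45 of its 47 counts in those 8 libraries.

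The 4 assembly factors of complex II and the pseudogene-named symbols were measured alongside. Sdhaf4 had 127 CPM in Pachytene and 149 in Metaphase I, and none of the 4 was past 2-fold. Ndufb1-ps (chromosome 12, 101968090 to 101977068), which GENCODE M21 lists as a long noncoding RNA at a bidirectional promoter, had 555 and 474 CPM, the highest of the 6. Its cells ran from 476 through 563 to 769 CPM in Pachytene and from 135 through 425 to 607 in Metaphase I. Cox5b-ps held 9.17% of Cox5b and Cox5b-ps counts in Pachytene and 11.2% in Metaphase I.

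Summed over the 92 members, the share of all counts was 2.73% in Pachytene (2.72 to 2.74) and 2.88% in Metaphase I (2.87 to 2.88). Single cells ran from 1.86% through a median of 2.77% to 3.82% in Pachytene and from 1.23% through 2.50% to 3.92% in Metaphase I, so the groups overlapped and the order of the medians was opposite to that of the sums. The 4 Metaphase I cells over 3.5% had totals of at least 964414 counts. In Metaphase I the member share had Pearson's r of 0.61 and Spearman's rho of 0.55 with the total count over 20 cells, and in Pachytene 0.07 and 0.27.

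Mitochondrial mRNA showed a wider spread. The 13 mRNAs of the mitochondrial genome held 0.290% of counts in Pachytene (0.288 to 0.293) and 0.433% in Metaphase I (0.430 to 0.437). Over cells the share ran from 0.00795% through 0.267% to 0.783% in Pachytene and from 0.0343% through 0.123% to 4.50% in Metaphase I, and 16 of 20 Metaphase I cells lay below the Pachytene median. The highest cells were Metaphase I replicate 19 at 4.50% and replicate 18 at 2.21%.

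The Metaphase I share was 0.213% without replicate 19 and 0.160% without both, below that of Pachytene. All 8 mitochondrial mRNAs with counts had positive log2 ratios in the sums (0.23 to 1.15), 0 of 8 did without replicate 19 (-0.96 to -0.01), and all 8 had a lower median over cells in Metaphase I. The direction of the mitochondrial mRNA difference therefore turned on 1 library.

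The other 5 mitochondrial mRNAs (mt-Nd4l, mt-Co2, mt-Co3, mt-Atp6 and mt-Atp8) had 0 counts in all 40 cells, while mt-Co1 had 19308. For mt-Co2, mt-Co3, mt-Atp6 and mt-Nd4l, stretches of 294 to 299 bases at the transcript end were 100% identical to a gene model on chromosome 1 (Gm28661, Gm28437, Gm10925 and Gm10222), with 49, 55, 22 and 2 counts. Copies of this kind were not limited to mRNAs at 0. The last 300 bases of mt-Co1 were 100% identical to Gm29216 (54 counts), and a stretch of 297 bases of mt-Nd3, which had 277 counts, to Gm28438 (4 counts), both on chromosome 1. For mt-Atp8 no such copy was found. The part of the copies in the zeros was not tested. The mitochondrial mRNA share accordingly rests on 8 of 13 mRNAs.

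The relation of nuclear and mitochondrial shares across cells varied with the cells included. Over 20 Pachytene cells Pearson's r was 0.48 and Spearman's rho 0.48, or 0.22 and 0.27 over the 16 without high X-linked counts. Over 20 Metaphase I cells they were -0.43 and -0.06, and 0.38 and 0.29 over the 18 without replicates 18 and 19. Both shares are of the same library total. With mitochondrial counts taken out of the total, r and rho were 0.53 and 0.55 in Pachytene and -0.33 and -0.02 in Metaphase I. Median member counts per mitochondrial mRNA count were 10.5 in Pachytene and 22.9 in Metaphase I, with cells from 2.60 to 367 and from 0.396 to 72.0.

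**Figure D4:**
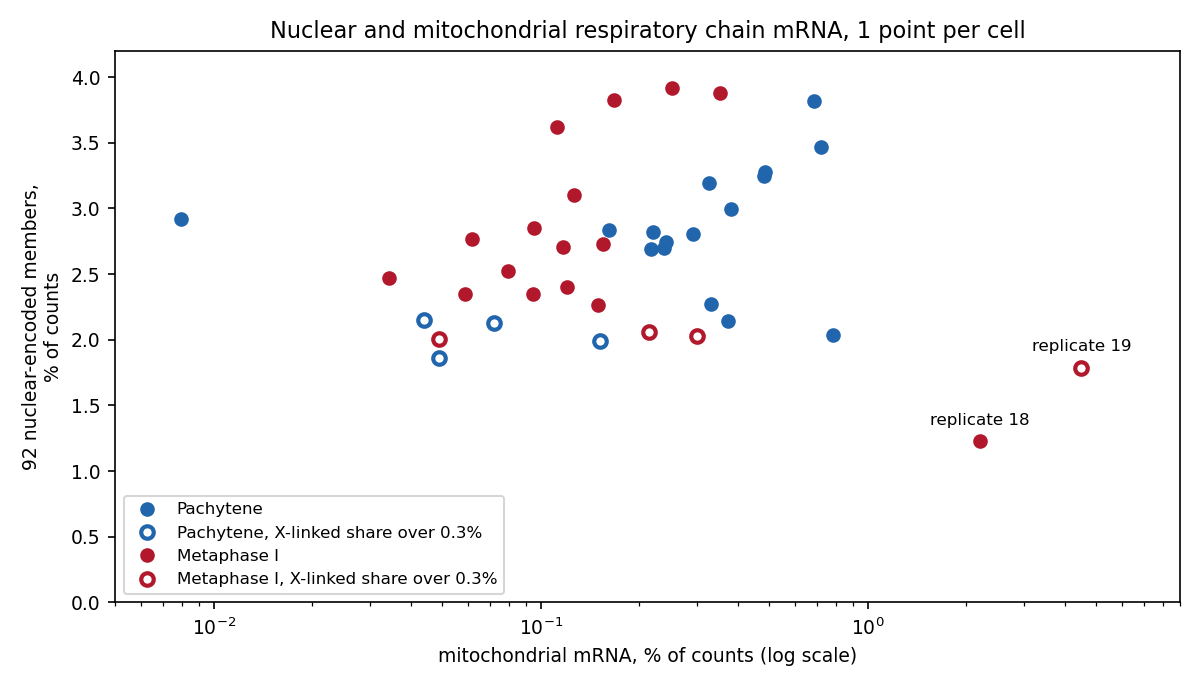
Share of counts of the 92 nuclear-encoded members (%) against that of mitochondrial mRNAs (%, log scale), 1 point per cell, with open points for the 8 libraries whose X-linked share is over 0.3%. Metaphase I replicates 19 and 18 lie far to the right, at 4.50% and 2.21%, with low member shares.

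The members tracked each other more closely than they tracked mitochondrial mRNA. For the 75 members with 1000 counts or more, Spearman's rho between a member's CPM and the summed other members over all 40 cells had a median of 0.70. It exceeded 0.5 for 51 of the 75 and was negative for 6. For 4820 other genes with as many counts, rho with the summed members had a median of 0.12, exceeded 0.5 for 1080 and was negative for 1998. The highest member was Ndufv2 at 0.91, and the highest other gene, Ppia, reached 0.96. With the mitochondrial mRNA share, the same 75 members had a median rho of 0.13 (quartiles 0.01 and 0.22), from -0.50 for Ndufa12 to 0.49 for Ndufa11. For 4811 other nuclear genes that median was -0.03 (quartiles -0.23 and 0.18). These values share library totals and include the 8 libraries with high X-linked counts.

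Of the 75 members, 6 had a negative rho with the rest: Atp5md (-0.62), Cox6b1 (-0.13), Atp5mpl, Ndufa4l2, Ndufa12 and Uqcrfs1. Atp5md, a small ATP synthase membrane subunit also called DAPIT, drew 25.3% of its Metaphase I count from replicate 19, and its highest Pachytene cell was replicate 2 at 274 CPM, both among the 8 libraries. By complex, rho of the complex's summed share with the other members over 40 cells was 0.98 for complex IV, 0.96 for I, 0.93 for III, 0.89 for V and 0.80 for II. The 3 testis isoforms together had 0.95, and the Sdhaf assembly factors had 0.22.

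The member share was low in all 8 libraries with X-linked counts over 0.3%, between 1.79% and 2.15%, against a median of 2.78% in the other 32. Within those 32 the relation with the X-linked share was also negative: Pearson's r was -0.73 and rho -0.58 over 16 Pachytene cells, and -0.34 and -0.39 over 16 Metaphase I cells. Spermatid markers moved the same way, with r of -0.61 and rho of -0.38 in those Pachytene cells and -0.34 and -0.39 in those Metaphase I cells. The part of spermatid or somatic RNA in the member share was not tested.

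**Figure D5:**
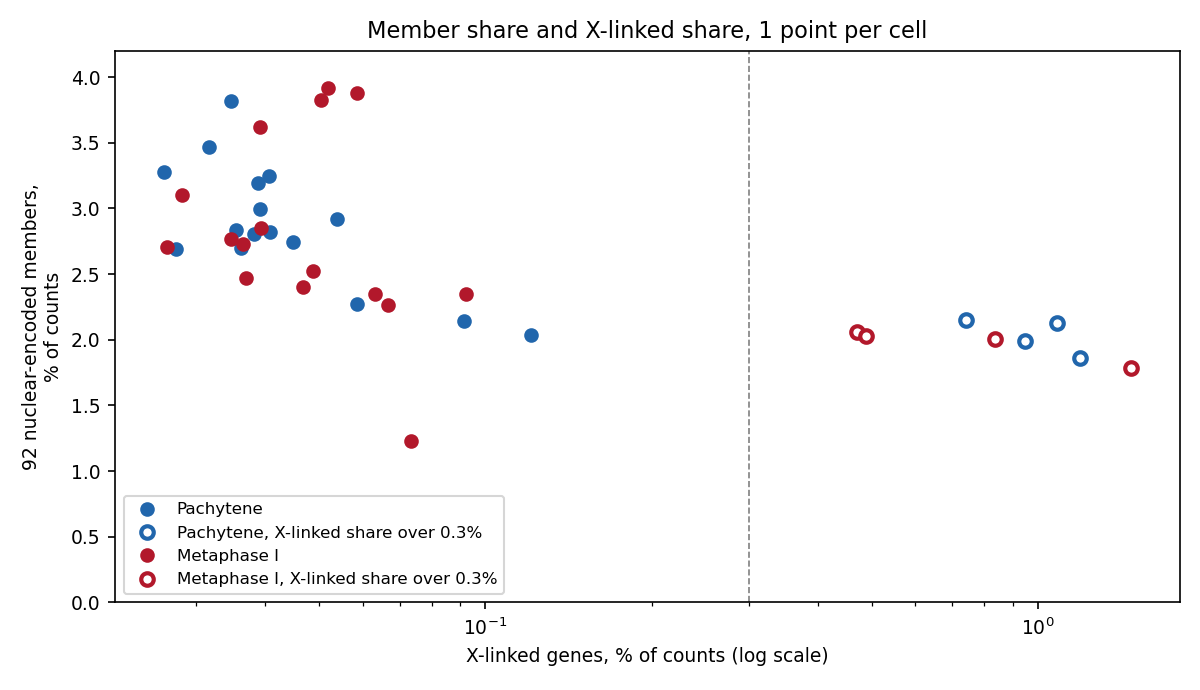
Share of counts of the 92 members (%) against the X-linked share (%, log scale), 1 point per cell, with open points for the 8 libraries to the right of the dashed line at 0.3%. The 8 lie between 1.79% and 2.15% in both groups, while the other cells range from 1.23% to 3.92%.

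Other genes of the pathway behaved as follows. Among 38 measured of 42 listed assembly factors of the respiratory chain, Metaphase I was over 2-fold higher for 1 and over 2-fold lower for 0 (median log2 ratio 0.18), where 8.49% and 9.81% of all measured genes were. That gene, Sco1, a copper chaperone of complex IV, had 25 and 69 counts, 30 of the 69 in replicate 19. Without that cell 0 were higher. Without the 8 libraries with high X-linked counts 3 were, where 5.65% of all measured genes were: Tmem126b with 43 and 83 counts, Nubpl with 13 and 55, and Coa7 with 9 and 37. Single Metaphase I cells weighed on these too: replicate 18 held 44 of the 83, replicate 14 held 39 of the 55 and replicate 4 held 13 of the 37. Among 18 of 21 genes of mitochondrial transcription and biogenesis, 2 were higher and 0 lower (median 0.24). Tfam, which packages mitochondrial DNA, had 28 and 60 counts, 23 of the 60 in replicate 18. The other was Tefm, a mitochondrial transcription elongation factor, at 2.59-fold (2.08 to 3.23). Replicate 13 alone held 57.6% of the Metaphase I counts, and medians over cells were 5.46 and 5.24 CPM. Among 15 of 17 genes of the tricarboxylic acid cycle, 1 was higher and 0 lower (median 0.22). It was the citrate synthase gene Cs, at 2.14-fold (1.89 to 2.42), with medians of 18.1 and 22.9 CPM. Without the 8 libraries Cs was no longer past 2-fold, while Suclg2, a subunit of succinyl-CoA ligase, was, with 0 and 17 counts, 11 of the 17 in replicate 13.

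Cytochrome c, which links complexes III and IV, showed the same split by isoform. Cyct had 417 CPM in Pachytene and 564 in Metaphase I. The somatic Cycs had 3.40 and 32.2 CPM, 9.49-fold (7.23 to 12.6). Replicate 19 held 74.7% of the Metaphase I count, with a log2 ratio of 1.13 without it. Cyc1, cytochrome c1 of complex III, had 42.9 and 62.9 CPM, a log2 ratio of 0.54. Of its Metaphase I counts, 37.6% came from replicate 13, and medians over cells were 30.7 and 25.6 CPM. Without the 8 libraries the log2 ratio of Cyc1 was 1.04. Then 2 of the 3 cytochrome genes were over 2-fold higher, where 5.65% of all measured genes were. Over all cells 1 was, where 8.49% of all measured genes were. Without the 8 libraries, replicate 13 held 324 of the 795 Metaphase I counts of Cyc1 and 53 of the 81 of Cycs.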

How the data were processed

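The deposited table holds raw whole-number counts per gene for 40 single-cell libraries made by a modified STRT-seq method, per the labels' protocols. UMI-tools, STAR and featureCounts were used by the authors with GRCm38, per the submitters' processing notes. The sources used here give no version, strand setting or annotation release, and do not say if reads or molecules were counted. Without strand, overlapping genes on opposite strands cannot be told apart.

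Per group, the counts of all cells were added and scaled to 1000000 (CPM). Ratios are Metaphase I over Pachytene, as log2 after adding 1 CPM. Shares have Clopper-Pearson intervals and folds exact conditional binomial intervals at 95%, too narrow if counts are reads. No test was made, since a group is 1 sample. The code was tested on simulated counts. Transcript ends were compared with BLAST+ 2.17.0. TMM factors came from edgeR 4.0.16. The lowest chi-square per degree of freedom over 780 pairs of libraries was 2.69, and no library was treated as a duplicate. Named were the isoform pairs, members past 2-fold, X-linked members, the 2 most abundant of each complex and the highest and lowest ratio of each complex with 100 counts or more. In other lists up to 3 genes with the largest ratio could be named. Further members were chosen after their values were seen. The members and lists were chosen with earlier results of these data known.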

Additional observations from a re-analysis of the deposited data

How the results depend on the processing

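No paired analysis was possible because no test was made and replicate numbers only name cells. The count of members over 2-fold higher (3) was 0 with median CPM over cells and without Metaphase I replicates 18 and 19, and 1 with a pseudocount of 10 CPM, without the 8 libraries with high X-linked counts and with a summed count minimum of 100. Leaving out each cell in turn gave 0 to 3, and 0 to 1 for lower members. The median log2 ratio was -0.0055 with mean and -0.060 with median CPM over cells, and 0.038 to 0.15 leaving out each cell. Scaling by TMM or median of ratios, leaving mitochondrial and ribosomal protein genes out of the totals, and the 82 subunits alone left it between 0.08 and 0.12. The log2 ratio of the member share, 0.076, was -0.033 with mean and -0.15 with median shares over cells, and 0.013 to 0.12 leaving out each cell. That of mitochondrial mRNA, 0.58, was -1.11 with median shares, -0.62 without the 8 libraries, -0.86 without replicates 18 and 19, and -0.45 without replicate 19, with a range of -0.45 to 0.72 leaving out each cell. The rho of member and mitochondrial shares in Pachytene, 0.48, was 0.27 without the 8 libraries, 0.61 without the 2 cells farthest from the median mitochondrial share and 0.65 after thinning. In Metaphase I, -0.06, it was 0.29 without the 2 cells farthest from the median mitochondrial share (and without replicates 18 and 19), 0.28 without the 8 libraries and 0.25 after thinning each cell to 340000 counts. Thinning drops 1 cell of Pachytene and 3 of Metaphase I. They are Pachytene replicate 5, with the highest mitochondrial mRNA share of its group (0.783%), and Metaphase I replicates 6, 7 and 18. The thinned values therefore mix the change in depth with the loss of these cells. Beyond the omissions named, the cause was not tested. Shares of Cox6b2, Cox7b2 and Cox8c stayed within 1 SD over cells under each alternative run. In Metaphase I these SDs were 8.32, 2.45 and 4.37 points, and 1.23, 0.032 and 0.48 without replicate 19. That limit was therefore too wide to judge stability in Metaphase I. The 82 subunits alone, the omission of replicates 18 and 19 and all share ratios were chosen after seeing the data. Members under 10 CPM rest on few counts per cell, so a 0 in a cell does not show absence.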
